A study of Caenorhabditis elegans with 9 samples.

Results

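Libraries of the lem-2(tm1582) strain were compared with wild-type libraries, a comparison that takes 5 of the 9 libraries of the series: 3 of wild type (strain N2) and 2 labelled lem-2(tm1582) (strain BN19). The other 4 libraries, 2 of emr-1(gk119) (strain BN20) and 2 of lem-2(tm1582) animals (labelled strain BN19) fed emr-1 double-stranded RNA, called the double libraries here, served to estimate the spread and to place single genes. The methods likewise say that the emr-1 RNAi was given to BN19, the strain with lem-2(tm1582). They also name a strain BN24 for 1 pair of libraries without giving its genotype beside it. All cultures began with about 40000 synchronized first-stage larvae, which were fed bacteria of the RNAi-feeding type in liquid medium with 1 mM IPTG for 53 h at 20 °C, until non-gravid young adults were the enriched stage. Which bacteria the wild-type and lem-2(tm1582) cultures ate is not given group by group in the sources used here. Poly(A) RNA came from whole animals, so that fewer cells of a type and less RNA per cell cannot be told apart in any result below. Nothing says how the replicate cultures of a group were separated, and p-values measure only the spread between these libraries.

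LEM-2 is a protein of the inner nuclear membrane. It belongs to the LEM-domain family, whose members bind the chromatin protein BAF-1 and the nuclear lamina, a meshwork that in C. elegans is built from the single lamin LMN-1. Emerin, encoded by emr-1, is another member of the family, and in the C. elegans embryo the 2 proteins can cover for each other. Such proteins tether chromatin to the nuclear periphery, which is generally a place of low transcription.

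The value of a gene is its coverage: the median read coverage of an exon, quantile-normalized over the 9 libraries, and a transcript takes the median of its exons. It is a level per base, not a count of reads, and the number of reads behind it is not used here. Transcripts of a gene were averaged to a locus. Differences are given as lem-2(tm1582) minus wild type on the scale of log2(coverage + 1), which understates the change of genes with little coverage, and were tested with limma. Testing took the 19567 loci whose coverage averaged 1 or more. Their median difference was 0.06 as deposited, and it became -0.06 after each library was centred on its median, a shift of more than 0.1 that every difference below carries. At loci covered 20 or more on average, 2 libraries typically differed by (median of absolute log2 differences) 0.18 between the 2 lem-2(tm1582) libraries, 0.20 to 0.31 between wild-type libraries and 0.25 to 0.38 across the 2 groups.

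At an adjusted p under 0.05, limma called 7 loci higher in lem-2(tm1582), 0.0358% of those tested, and 2 lower, 0.0102%. Over 24939 single transcripts the same rule called 8 higher (0.0321%) and 2 lower (0.00802%). These counts changed with each single library that was left out. Leaving out an emr-1(gk119) or double library does not touch the differences themselves, which stayed at 1.51 for nlp-33 and -5.63 for F35H10.6. It changes only the estimate of the spread behind the p-values. Without wild-type replicate 1 or 2, lem-2(tm1582) replicate 2, emr-1(gk119) replicate 1 or either double library, 0 loci were called higher and 1 lower, T21H3.5. Without lem-2(tm1582) replicate 1 the counts were 0 and 2. Without wild-type replicate 3 they were 10 and 4, and without emr-1(gk119) replicate 2 they were 5 and 4. Below that threshold the differences were lopsided, since 2358 loci (12.1%) were higher and 706 (3.61%) lower at an unadjusted p under 0.05. With the libraries centred on their medians this split became 1716 against 1346, and without lem-2(tm1582) replicate 1 it was 1325 (6.77%) against 362 (1.85%). Both lem-2(tm1582) libraries lay above all 3 wild-type libraries at 4065 loci (20.8%) and below them at 2343 (12%). Functional groups are described below by these 2 kinds of count and by their median, and nothing was called at locus level except the 9 loci described next after lem-2 itself.

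**Figure D1:**
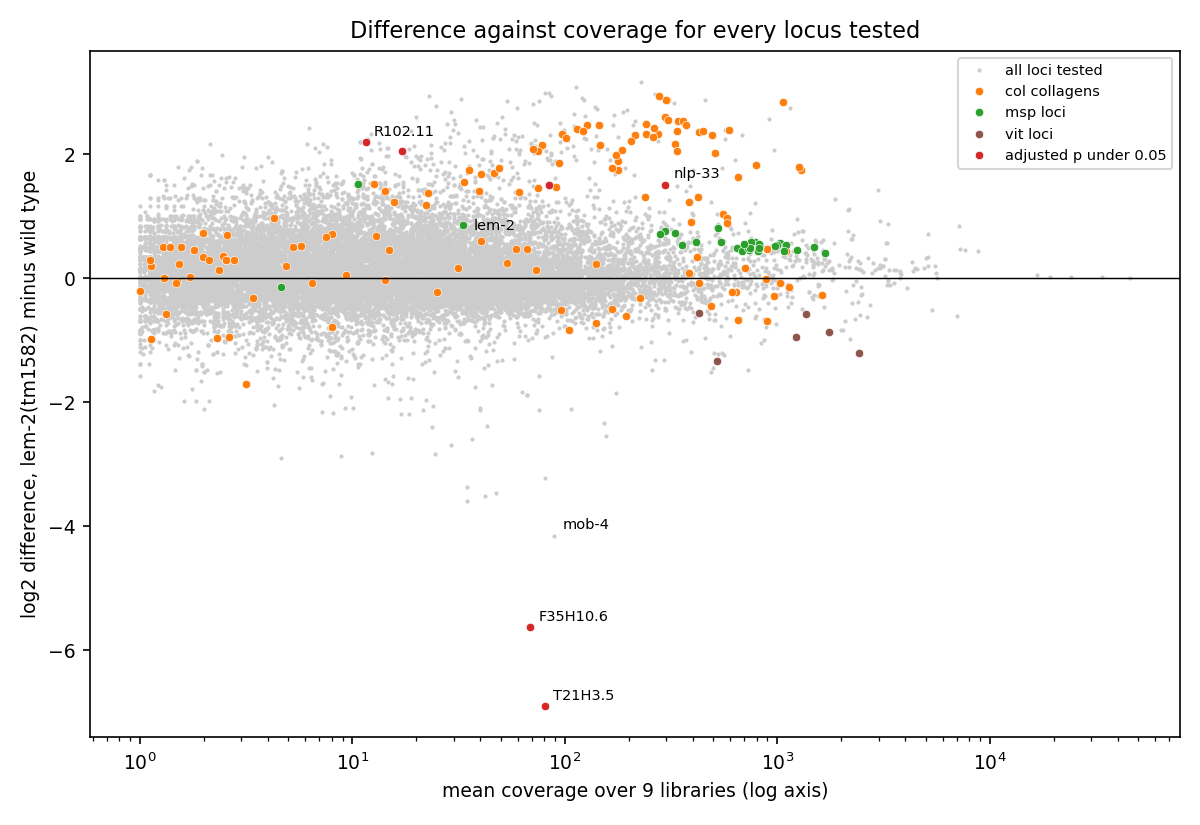
Log2 difference, lem-2(tm1582) minus wild type (vertical axis), against the mean coverage over 9 libraries (horizontal log axis). Each point is a locus; grey marks all 19567 loci tested, red those at an adjusted p under 0.05, orange the col collagens, green the msp loci and brown the vit loci. T21H3.5 and F35H10.6 stand at the foot of the plot, at -6.91 and -5.63.

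The targeted gene itself was not lower in its own mutant. In wild type, lem-2 (W01G7.5, chromosome II, 14063450 to 14066646 in WBcel235) was covered at 32.2, 29.3 and 39, and in the libraries labelled lem-2(tm1582) at 54 and 53.2, a difference of 0.67 ± 0.20 (SE; adjusted p = 0.179). The double libraries, labelled with the same allele, had 28.9 and 30.5 and emr-1(gk119) a mean of 19.9. The allele is a deletion, and which exons it takes away is not given in the sources used here. A median over exons need not fall when part of a gene is lost, so this level does not check the genotype in either direction. Coverage of emr-1 was 0 and 1.5 in emr-1(gk119), against 52.1, 44.6 and 60.5 in wild type and 44.5 and 44.4 in lem-2(tm1582). In the double libraries, labelled emr-1(RNAi), emr-1 was at 135 and 73.5, above every wild-type library, so its coverage does not show the knockdown. The paper took the many dead embryos of these animals as its check that the RNAi worked. Their bacteria made double-stranded RNA from the full-length emr-1 cDNA, and whether reads of it add to this coverage was not tested. Values of the double libraries below are those of libraries labelled so. The difference of emr-1 between lem-2(tm1582) and wild type was -0.22 ± 0.41 (adjusted p = 0.843). Coverage of the lamin gene lmn-1 was 136, 156 and 121 in wild type, against 125 and 135 in lem-2(tm1582), with a difference of -0.07 ± 0.15 (adjusted p = 0.868), and the groups overlapped.

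Among 19 genes of the nuclear envelope, 0 were called and the median difference was -0.19. At an unadjusted p under 0.05, 1 (5.26%) was higher (lem-2) and 1 (5.26%) lower, beside 12.1% and 3.61% of all loci. The lower one was lpin-1, the lipin that shapes membrane lipids, with 217.9, 201 and 275 in wild type and 174 and 166 in lem-2(tm1582). The differences of baf-1, 0.20 ± 0.29, and of the LEM-domain gene lem-3, -0.29 ± 0.37, both lay within 1 standard error of 0. Of 26 nuclear pore genes, 0 were higher and 1 (3.85%) was lower at that level, a share of lower genes near that of all loci, with a median of -0.13.

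The loci around lem-2 showed no called difference. Among the 15 tested loci on either side, 0 were called. At an unadjusted p under 0.05, 6 of 30 were higher and 0 lower, beside 12.1% and 3.61% of all loci. The smallest adjusted p, 0.141, was that of F01D5.5, with 18.6, 17.8 and 14.5 in wild type and 33.97 and 26.5 in lem-2(tm1582). The differences of the 30 loci ran from -0.70 to 1.27 around a median of 0.25, and those next to lem-2 on either side were near 0.

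**Figure D2:**
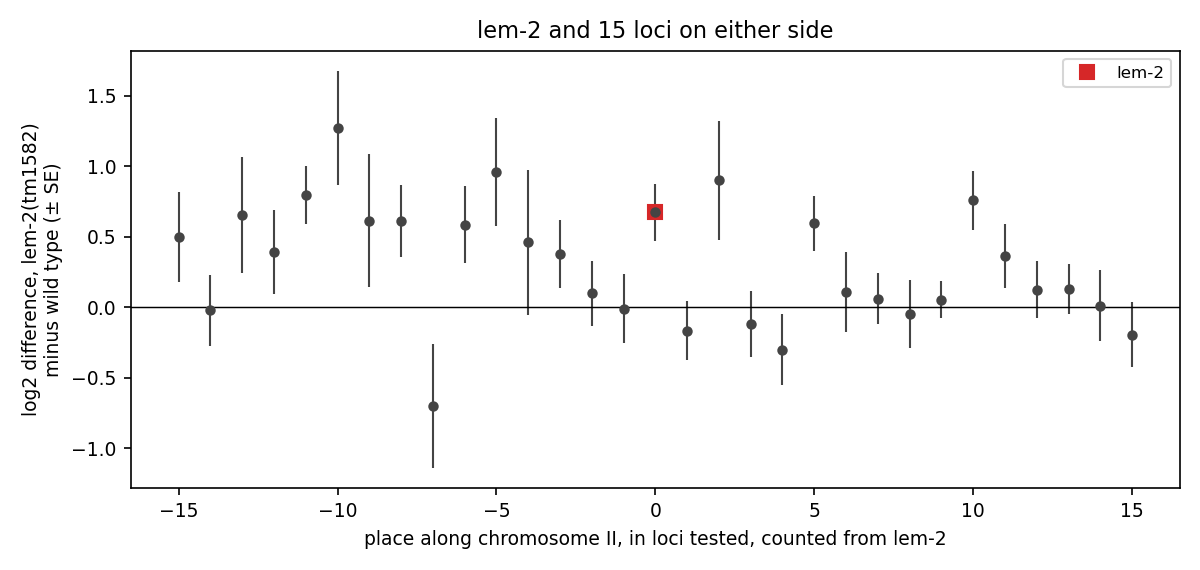
Log2 difference (lem-2(tm1582) minus wild type, vertical axis, with its SE) of lem-2 (red square) and of 15 tested loci on either side of it along chromosome II, by place (horizontal axis). Differences of the neighbours run from -0.70 to 1.27 and do not follow the distance from lem-2.

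The largest difference of the whole comparison was at T21H3.5, a protein-coding gene on chromosome V (1158251 to 1164293 in WBcel235). It was covered at 233, 240 and 244 in the wild-type libraries and at 1.00 and 1.00 in lem-2(tm1582). The difference was -6.91 ± 0.21 (adjusted p = 5.60e-05), and T21H3.5 was called lower in every alternative run and with every single library left out. The other mutants were low as well: emr-1(gk119) had 2.00 and 2.00 and the double libraries had 1.00 and 2.00. Their contrasts with lem-2(tm1582) had adjusted p-values of 0.251 and 0.418. None of the 4 tested loci beside it was called or lower, and 2 were higher at an unadjusted p under 0.05. Calmodulin, cmd-1, whose annotated end lies just beside T21H3.5, had 351, 326 and 284 in wild type and 373 and 399 in lem-2(tm1582), a difference of 0.27 ± 0.20. On the other side the nearest locus was ptr-16, a patched-related gene, with 4.17, 3.22 and 1.00 against 6.33 and 9.06 (1.29 ± 0.46, adjusted p = 0.235), and beyond it T21H3.1 had 342, 280 and 321 against 329 and 349. Past cmd-1, cutl-22 had 1.00 in each wild-type library and 2.00 in both lem-2(tm1582) libraries (0.58 ± 0.19, adjusted p = 0.198).

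The other called decrease, F35H10.6 on chromosome IV (8299936 to 8300647), followed the lem-2 label. The wild-type libraries had 132, 188 and 69.7 and the lem-2(tm1582) libraries 2.00 and 1.00, a difference of -5.63 ± 0.43 (adjusted p = 0.0223). The double libraries, labelled with the same allele, had 1.5 and 2, while emr-1(gk119) had 83.4 and 139, within the wild-type range. The difference of emr-1(gk119) minus lem-2(tm1582) was 5.47 (adjusted p = 0.0042). The 4 tested loci beside F35H10.6 differed by -0.64 to -0.15, with 0 called. F35H10.6 was not called in 9 of 19 alternatives, where its adjusted p reached 0.260, and these include leaving out wild-type replicate 1 or 2, either lem-2(tm1582) library, emr-1(gk119) replicate 1 or either double library.

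The increase with the highest coverage was nlp-33, one of the neuropeptide-like genes that encode small secreted peptides, several of them known as antimicrobial peptides of the epidermis. It was covered at 70.7, 62.6 and 73.5 in wild type and at 199 and 196 in lem-2(tm1582), which rose by 1.51 ± 0.13 (adjusted p = 0.0275). The other mutants stood higher still, emr-1(gk119) at 601 and 688 and the double libraries at 400.1 and 383. The direct contrast with lem-2(tm1582) was 1.70 for emr-1(gk119) (adjusted p = 0.0035) and 0.99 for the double libraries (adjusted p = 0.0095). R102.11 on chromosome IV (10698376 to 10699760) was at 1.00 in each wild-type library and at 8.44 and 7.82 in lem-2(tm1582), a rise of 2.19 ± 0.21 (adjusted p = 0.0358). Both of its transcripts were called. Its 3 equal wild-type values are at the low end of the scale, where coverage takes few distinct values. Both calls were lost without wild-type replicate 1 or 2, either lem-2(tm1582) library, emr-1(gk119) replicate 1 or either double library, and that of R102.11 also without wild-type replicate 3. Their highest adjusted p over the alternatives was 0.318 for nlp-33 and 0.436 for R102.11.

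The remaining 5 called loci are annotated piRNA genes on chromosome IV, and they stand for 2 places. Those at the first place, 21ur-2146, 21ur-13402 and 21ur-12985, overlap each other within 14565446 to 14565470 and had the same values, 31.1, 31.1 and 24.6 in wild type and 85.1 and 81.4 in lem-2(tm1582), a rise of 1.5 ± 0.15 (adjusted p = 0.0358). They lie in the protein-coding gene Y57G11B.2 on the other strand, which had 28.9, 53.8 and 40.7 in wild type and 105 and 89.2 in lem-2(tm1582), a difference of 1.26 ± 0.25 (adjusted p = 0.115). The other 2, 21ur-6210 and 21ur-11351, lie within 5736279 to 5736300 and had 4.22, 3.22 and 3.00 in wild type and 19.1 and 15.9 in lem-2(tm1582), a rise of 2.05 ± 0.21 (adjusted p = 0.0358). They lie in cpg-18, a chondroitin proteoglycan gene on the opposite strand, with 4.17, 8.31 and 2.50 in wild type and 10.5 and 15.8 in lem-2(tm1582) and a difference of 1.33 ± 0.41 (adjusted p = 0.185). The library kit selects poly(A) RNA and the counting is not stated to use strand, so the coverage of a piRNA and of the gene around it cannot be told apart. Leaving out emr-1(gk119) replicate 2 ended the calls of all 5 piRNA loci, leaving out wild-type replicate 3 ended those of 21ur-6210 and 21ur-11351, and leaving out any of the other 7 libraries ended all 5. Over the 19 alternatives their highest adjusted p was 0.436.

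**Figure D3:**
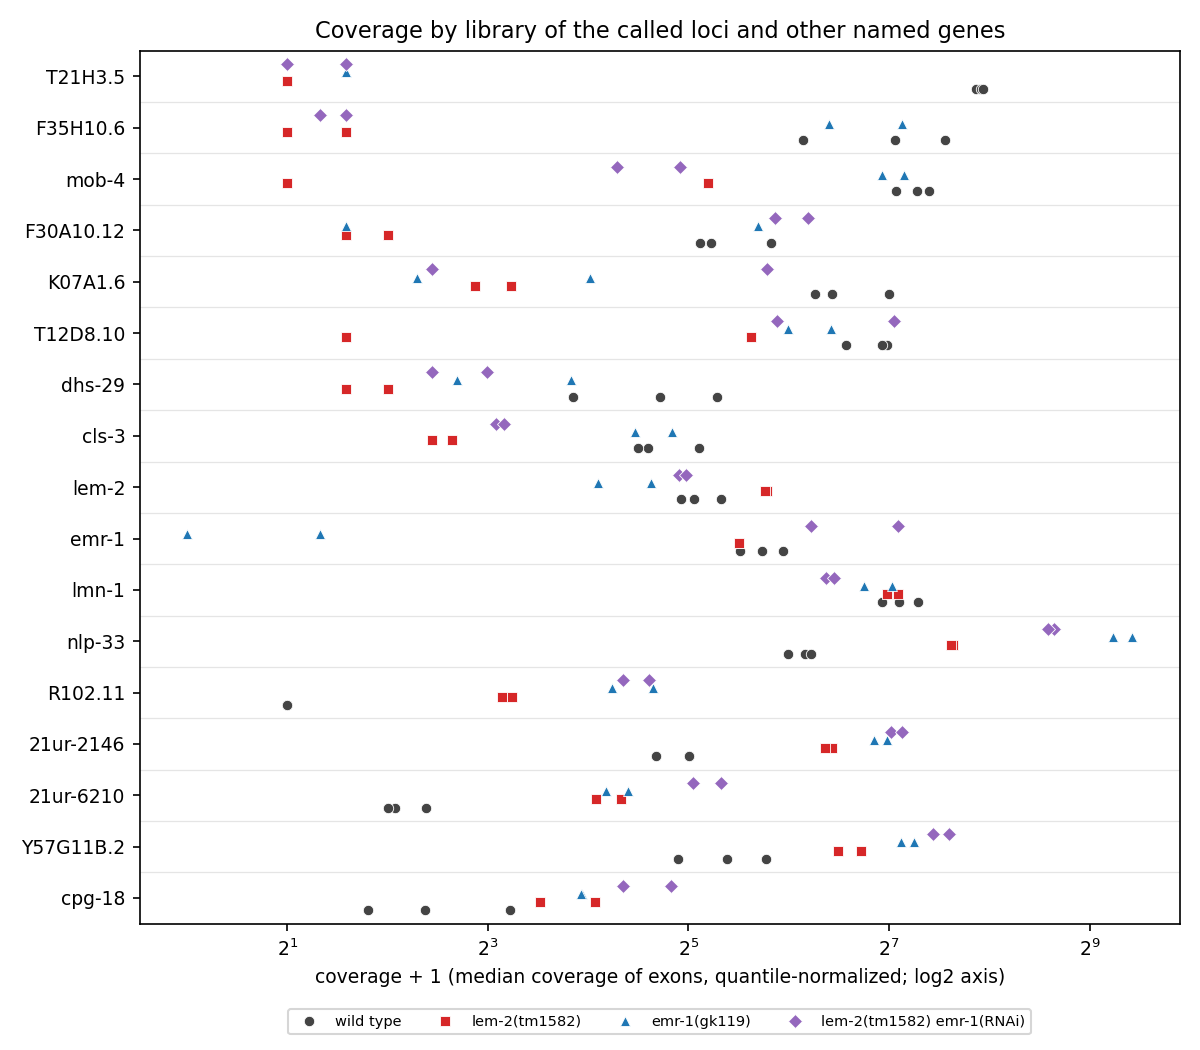
Coverage + 1 (horizontal log2 axis) of the called loci, of genes they overlap and of other named genes in all 9 libraries, 1 symbol per library with groups by colour and shape. T21H3.5 is low in all 6 mutant libraries, whereas F35H10.6 is low only in the 4 libraries labelled lem-2(tm1582) among those drawn.

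Several further loci lay far below the wild-type range without passing the adjusted threshold, and they are given as values. Coverage of mob-4, a homologue of the MOB-family protein phocein, was 154, 168 and 134 in wild type, against 35.6 and 1.00 in lem-2(tm1582). The double libraries had 29.1 and 18.6 and the emr-1(gk119) libraries 141 and 121. The difference of mob-4 was -4.15 ± 1.02 (adjusted p = 0.134), and the lem-2(tm1582) libraries themselves lay far apart. Without lem-2(tm1582) replicate 1, mob-4 was called at -6.25 (adjusted p = 0.0052). K07A1.6 had 127, 75.9 and 85.2 in wild type and 6.33 and 8.39 in lem-2(tm1582) (-3.51 ± 0.92, adjusted p = 0.146). F30A10.12 had 55.7, 33.6 and 36.4 against 3.00 and 2.00 (-3.59 ± 1.01, adjusted p = 0.16), but the double libraries, labelled with the same allele, had 57.1 and 72.1. For dhs-29, a short-chain dehydrogenase gene, the values were 25.3, 13.4 and 37.9 against 2.00 and 3.00 (-2.83 ± 0.49, adjusted p = 0.106). The non-coding RNA T19E7.24 differed by -2.86 and T12D8.10 by -3.23. The CLASP-family gene cls-3, named after its values were seen because it lay just beyond the threshold, had 23.2, 33.5 and 21.5 in wild type and 5.22 and 4.44 in lem-2(tm1582) (-2.19 ± 0.24, adjusted p = 0.0524). Its mean was 24.3 over the emr-1(gk119) libraries and 7.69 over the double libraries.

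Genes of the cuticle, the collagen-rich coat that the epidermis secretes anew at each molt, made up a broad set of higher values. All 6 furrow collagens, which form the rings of the cuticle annuli, were higher at an unadjusted p under 0.05 and lay above every wild-type library, with a median difference of 1.74, while 0 were called. Of all loci 12.1% were higher at that level and 20.8% lay above every wild-type library. Coverage of dpy-7 was 4.17, 4.33 and 2.50 in wild type, against 14.9 and 16.7 in lem-2(tm1582), a difference of 1.87 ± 0.24 (adjusted p = 0.0828). For dpy-3 the values were 2.61, 1.5 and 1 against 7.25 and 11.8 (1.97 ± 0.37, adjusted p = 0.112), and for dpy-10 they were 10.61, 8.5 and 7.36 against 17.9 and 26.03 (1.22 ± 0.26). The groups overlapped at none of these 3 genes.

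Of 14 collagens known for body shape, rolling or the struts of the adult cuticle, 11 were higher and 0 lower at that level, 12 lay above all wild-type libraries, and the median difference was 2.25. Coverage of dpy-13 was 39, 51.9 and 10.2 in wild type, against 217 and 188 in lem-2(tm1582) (2.82 ± 0.61, adjusted p = 0.124). In lon-3 the values were 15.6, 13.7 and 5.28 against 50.4 and 60.4 (2.29 ± 0.40, adjusted p = 0.106), and in rol-6 17.3, 14.7 and 5.33 against 54.6 and 50.8 (2.13 ± 0.48). The strut collagen bli-1 did not separate the groups, with 7.33, 3.22 and 2.00 against 6.33 and 5.89, whereas bli-2 did, with 42.6, 15.2 and 8.39 against 55.4 and 111.

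The 134 tested members of the col family differed both ways. At an unadjusted p under 0.05, 67 (50%) were higher and 7 (5.22%) lower, beside 12.1% and 3.61% of all loci, and the median difference was 0.72. The largest positive difference was at col-138, with 36.6, 41.9 and 7.33 in wild type and 207 and 158 in lem-2(tm1582) (2.93 ± 0.66, adjusted p = 0.127). More tightly measured were col-92, with 194, 227 and 140 against 442 and 463 (1.30 ± 0.21, adjusted p = 0.106), and col-168, with 28.7, 36.6 and 13 against 133 and 117 (2.33 ± 0.41). Reads can be shared between close collagen paralogs such as col-92 and col-94, whose values ran together. The lower ones included col-119, with 1235, 1382 and 1849 in wild type and 896 and 928 in lem-2(tm1582) (-0.69 ± 0.19, adjusted p = 0.152). The adult-stage collagen col-19, chosen after its values were seen, had 1122, 1226 and 1462 against 984 and 1083 (-0.29 ± 0.15, adjusted p = 0.410).

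In these lists wild-type replicate 3 stood apart from the other wild-type libraries. It was the lowest of the 5 libraries at 6 of 6 furrow collagens, 13 of 14 body shape and strut collagens and 80 of 134 col genes, and at 4879 of all 19567 loci. Median coverage of the body shape and strut collagens was 30.95, 21.04 and 6.08 in wild type, against 78.8 and 91.9 in lem-2(tm1582). Without wild-type replicate 3 their median difference was 1.62, that of the furrow collagens 1.41 and that of the col family 0.70. The counts at an unadjusted p under 0.05 were then 11 of 14, 6 of 6 and 67 of 134 higher, beside 10.3% of all loci.

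**Figure D4:**
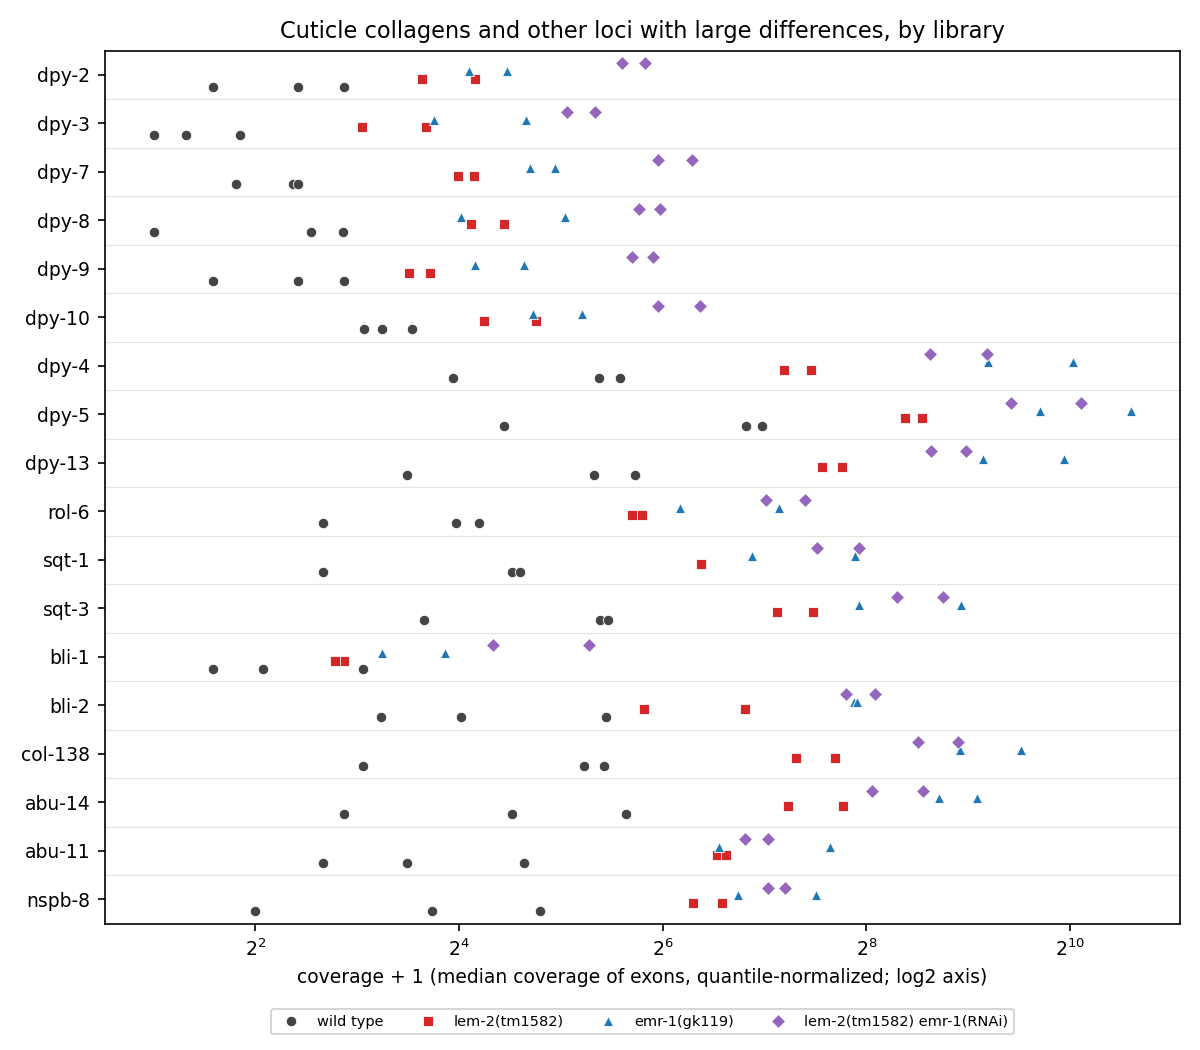
Coverage + 1 (horizontal log2 axis) of cuticle collagens and 3 other loci with large differences in all 9 libraries, 1 symbol per library. In nearly all of them the lem-2(tm1582) libraries lie above the 3 wild-type libraries and below the double libraries, and bli-1 is the one drawn where lem-2(tm1582) and wild type overlap.

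Other genes of molting and the apical matrix were higher as well, by less. Of 28 such genes 11 (39.3%) were higher and 0 lower at an unadjusted p under 0.05, with a median of 0.57. Of all loci 12.1% were higher and 3.61% lower at that level. Coverage of mlt-10, which is transcribed in the epidermis before each molt, was 8.78, 10.08 and 4.22 in wild type, against 23.4 and 22.1 in lem-2(tm1582) (1.52 ± 0.44, adjusted p = 0.168), and that of acn-1, needed for molting, was 9.78, 8.47 and 4.61 against 24.1 and 23.1 (1.57 ± 0.40). Of 30 astacin metalloproteases 9 (30%) were higher and 1 (3.33%) lower, with nas-15 at 1.00, 2.61 and 1.00 against 9.44 and 8.94. Hedgehog-related genes, a nematode family expressed largely in epithelia, gave 16 (32.7%) higher and 1 (2.04%) lower of 49, led in size by grl-21 with 91.6, 79.0 and 19.2 against 332 and 284 (2.54 ± 0.58, adjusted p = 0.130). Cuticlins gave 7 (22.6%) higher and 0 lower of 31. The master regulator of molting nhr-23 was level, with 34.1, 41.1 and 28.2 against 33.5 and 34.1, and mlt-11 overlapped. The count of 11 molting genes was 7 (25%) with centred libraries, beside 8.77% of all loci, and 6 (21.4%) without wild-type replicate 3, beside 10.3%. Without lem-2(tm1582) replicate 1 or 2 their median was 0.65 or 0.49, and that of the hedgehog-related genes 0.53 or 0.35. In both of these runs the higher counts of molting, astacin and hedgehog-related genes fell, as did that of all loci.

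The highest single differences belonged to abu genes, which encode proteins rich in glutamine and asparagine and are known from the cuticle lining of the pharynx. Coverage of abu-14 was 21.9, 48.7 and 6.33 in wild type, against 217.9 and 150 in lem-2(tm1582), a difference of 3.16 ± 0.69 (adjusted p = 0.125). For abu-11 the values were 10.2, 23.8 and 5.33 against 91.7 and 97.4 (2.98 ± 0.55, adjusted p = 0.109), and for abu-15 15.9, 31.97 and 3.17 against 123 and 101 (3.08 ± 0.76). Within the abu and pqn names together, a list drawn up after these values were seen, 26 of 67 (38.8%) were higher and 0 lower at an unadjusted p under 0.05. Of all loci 12.1% were higher at that level, and both counts fell without lem-2(tm1582) replicate 2. The nspb family, also added afterwards, had a median of 2.03 over 12 loci, and nspb-8 was at 12.31, 26.8 and 3.00 against 77.7 and 94.6 (2.93 ± 0.71). K02E11.10, C06B3.7 and the non-coding AC3.16 complete the 8 largest positive differences, at 2.98, 2.94 and 2.97, and none of the 8 was called.

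Secreted peptides of the epidermis accompanied nlp-33. Among 98 neuropeptide genes 1 was called, 17 (17.3%) were higher and 0 lower at an unadjusted p under 0.05, and the median was 0.27. Of all loci 12.1% were higher at that level. Without wild-type replicate 1 the shares were 13.3% of the neuropeptide genes and 10.8% of all loci. Coverage of nlp-25 was 8.61, 9.72 and 4.17 in wild type, against 42.5 and 33.2 in lem-2(tm1582) (2.25 ± 0.31, adjusted p = 0.0923), and that of nlp-27 was 86.2, 95.2 and 90.6 against 204 and 193 (1.12 ± 0.21, adjusted p = 0.112). In nlp-29, a known target of fungal infection and wounding, it was 39.4, 56.4 and 67.9 against 108 and 112.3. The related cnc-8 had 57.8, 69.2 and 64.8 against 147 and 128 (1.1 ± 0.14, adjusted p = 0.0828). Of 18 epidermal nlp and cnc genes, grouped after their values were seen, 13 were higher and 0 lower. The neuronal peptide gene flp-8 was higher too, at 50.6, 55.2 and 49.5 against 86.4 and 81.2 (0.68 ± 0.12, adjusted p = 0.106). Genes of synaptic release did not share this: of 26, 0 were higher and 0 lower at that level, and their median was 0.05. Of the 26, 5 lay above and 6 below all wild-type libraries, beside 20.8% and 12% of all loci.

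Genes of the contractile apparatus of muscle were higher by a smaller amount than the collagens. Of 42 sarcomere and attachment genes, 22 (52.4%) were higher and 0 lower at an unadjusted p under 0.05, beside 12.1% and 3.61% of all loci. Above all wild-type libraries lay 33 of the 42, beside 20.8% of all loci, and the median was 0.54. Tropomyosin, lev-11, was covered at 262, 240.1 and 210.1 in wild type and 502 and 420.1 in lem-2(tm1582) (0.95 ± 0.18, adjusted p = 0.112). Troponin T, mup-2, had 203, 171 and 128 against 360.1 and 300 (1.00 ± 0.22, adjusted p = 0.127), and paramyosin, unc-15, 194, 212 and 140 against 360 and 315 (0.91 ± 0.22). The body-wall myosin gene myo-3 did not follow, with 11.9, 12.7 and 9.28 against 10.4 and 10.3. Without wild-type replicate 3, which was the lowest of the 5 libraries at 29 of the 42 genes, 18 were higher and the median was 0.44. Without lem-2(tm1582) replicate 1, 7 were higher (16.7%, beside 6.77% of all loci). In the broader muscle list of the study 135 of 842 (16%) were higher and 8 lower, beside 12.1% of all loci higher, with a median of 0.26. With centred libraries 71 (8.43%) were higher and 14 lower, and without lem-2(tm1582) replicate 1, 41 (4.87%) were higher. Both shares lie below those of all loci under the same settings, 8.77% and 6.77%. Muscle channels and the dystrophin complex gave 4 higher (14.8%) and 1 lower of 27, a share of higher genes near that of all loci. With centred libraries 0 were higher, and without wild-type replicate 3 it was 1.

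Genes of sperm were higher and those of the oocyte lower. Of 30 major sperm protein loci, which encode the cytoskeletal protein of nematode sperm, 29 (96.7%) were higher and 0 lower at an unadjusted p under 0.05. All loci gave 12.1% and 3.61% beside this, and the median of the sperm protein loci was 0.53. These copies are nearly identical and can share reads, so they are not 30 separate measurements. With the libraries centred on their medians 15 (50%) were higher at that level, beside 8.77% of all loci. Without lem-2(tm1582) replicate 1 or 2 the count fell, as did that of all loci. Coverage of msp-64 was 476, 374 and 427 in wild type, against 757 and 735 in lem-2(tm1582) (0.81 ± 0.15, adjusted p = 0.109). Of 25 other sperm genes 9 (36%) were higher and 0 lower, with a median of 0.58, and spe-26 had 27.2, 32.1 and 31.6 against 68.7 and 66.0 (1.13 ± 0.17, adjusted p = 0.106). With centred libraries 5 (20%) of the 25 were higher, beside 8.77% of all loci. Without lem-2(tm1582) replicate 1 the median of the 25 was 0.56, and their count fell, as did that of all loci. The sperm phosphatase gsp-3 had 133, 93.3 and 123 against 214 and 216. Unlike the collagens, the major sperm proteins put wild-type replicate 3 lowest at only 1 of 30 loci. Their median coverage was 981 and 971 in lem-2(tm1582), beside 779, 594 and 732 in wild type. The emr-1(gk119) libraries had 735 and 744 and the double libraries 531 and 574.

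Of 28 oocyte genes, 0 were higher and 12 (42.9%) lower at an unadjusted p under 0.05, beside 12.1% and 3.61% of all loci. Below all wild-type libraries lay 17 of the 28, beside 12% of all loci, and the median was -0.42. Coverage of lin-41, which restrains oocyte maturation, was 67.97, 75.5 and 80.0 in wild type, against 37.2 and 46.6 in lem-2(tm1582) (-0.82 ± 0.16, adjusted p = 0.112). The RNA-binding gene puf-5 had 544, 594 and 568 against 354 and 415 (-0.57 ± 0.13, adjusted p = 0.125), and egg-2, needed for fertilization, had 261, 242 and 262 against 127 and 166 (-0.81 ± 0.18). For pos-1, a maternal RNA-binding protein, the values were 1029, 1121 and 1226 against 638 and 809. The groups were apart at all 4 of these genes. Without lem-2(tm1582) replicate 1 the median of the 28 was -0.26, and fewer of them were lower at that level, as was so for all loci.

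Vitellogenin genes, which the adult intestine transcribes to supply oocytes with yolk, were lower at 4 of 6 loci (66.7%) at an unadjusted p under 0.05, beside 3.61% of all loci. All 6 lay below every wild-type library, as 12% of all loci did. Coverage of vit-2 was 3751, 3366 and 6678 in wild type, against 1815 and 1985 in lem-2(tm1582) (-1.21 ± 0.30, adjusted p = 0.135), and that of vit-6 was 2780, 2390 and 3684 against 1569 and 1623 (-0.86 ± 0.20, adjusted p = 0.127). For vit-3 the values were 1051, 1005 and 1157 against 398 and 450.04 (-1.34 ± 0.25), though vit-3, vit-4 and vit-5 are close copies. Of 26 other intestinal genes 6 lay above and 7 below all wild-type libraries, beside 20.8% and 12% of all loci, and the median was -0.17. At an unadjusted p under 0.05, 1 (3.85%) was higher and 1 (3.85%) lower, beside 12.1% and 3.61% of all loci. The higher one was the intermediate filament gene ifb-2, with 418, 422 and 364 against 546 and 494, and the lower one dct-1, with 25.8, 18.8 and 30.2 against 15.8 and 14.9. The esterase gene ges-1 had 48.2, 39.2 and 67.8 against 28.4 and 30.6 (-0.76 ± 0.36, adjusted p = 0.371), and the transcription factor elt-2 had 12.9, 9.28 and 11.6 against 14.8 and 13.9 (0.34 ± 0.22, adjusted p = 0.528). The count of lower genes was 4 (15.4%) with centred libraries, beside 6.88% of all loci. It was also 4 without emr-1(gk119) replicate 1 or 2, beside 4.67% or 4.68%. Without wild-type replicate 2 it was 3 (11.5%), beside 3.91%, and without wild-type replicate 1 it was 0, beside 2.98%. Without lem-2(tm1582) replicate 2 the median of the 26 was -0.06.

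DNA replication and cell-cycle genes leaned the same way as oocyte genes, with 0 higher and 7 (25.9%) lower of 27 and a median of -0.32. Of all loci 12.1% were higher and 3.61% lower. The 7 became 12 (44.4%) with centred libraries, beside 6.88% of all loci. They became 4 (14.8%) or 3 (11.1%) without wild-type replicate 1 or 2, beside 2.98% or 3.91%. Without lem-2(tm1582) replicate 1 the median of the list was -0.13. Coverage of the cyclin gene cyb-3 was 429, 432 and 454 in wild type, against 249 and 314 in lem-2(tm1582) (-0.65 ± 0.16, adjusted p = 0.134), and that of rnr-2, a ribonucleotide reductase subunit, was 623, 635 and 725 against 389 and 472. Genes of germ cell fate and meiosis gave 0 higher and 0 lower of 35. P granule and small RNA genes gave 0 higher and 2 (8.7%) lower of 23. Of 36 chromatin modifiers 1 (2.78%) was higher and 4 (11.1%) lower, and the median was -0.17. With centred libraries 8 (22.2%) were lower, beside 6.88% of all loci, and without wild-type replicate 2 it was 2 (5.56%), beside 3.91%. Without lem-2(tm1582) replicate 1 the median of the chromatin modifiers was -0.16. The histone demethylase utx-1 had 7.33, 5.44 and 5.33 against 3 and 3.5 (-0.72 ± 0.21, adjusted p = 0.166), and lin-65 had 31.1, 28.8 and 31.6 against 18.2 and 23.5.

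**Figure D5:**
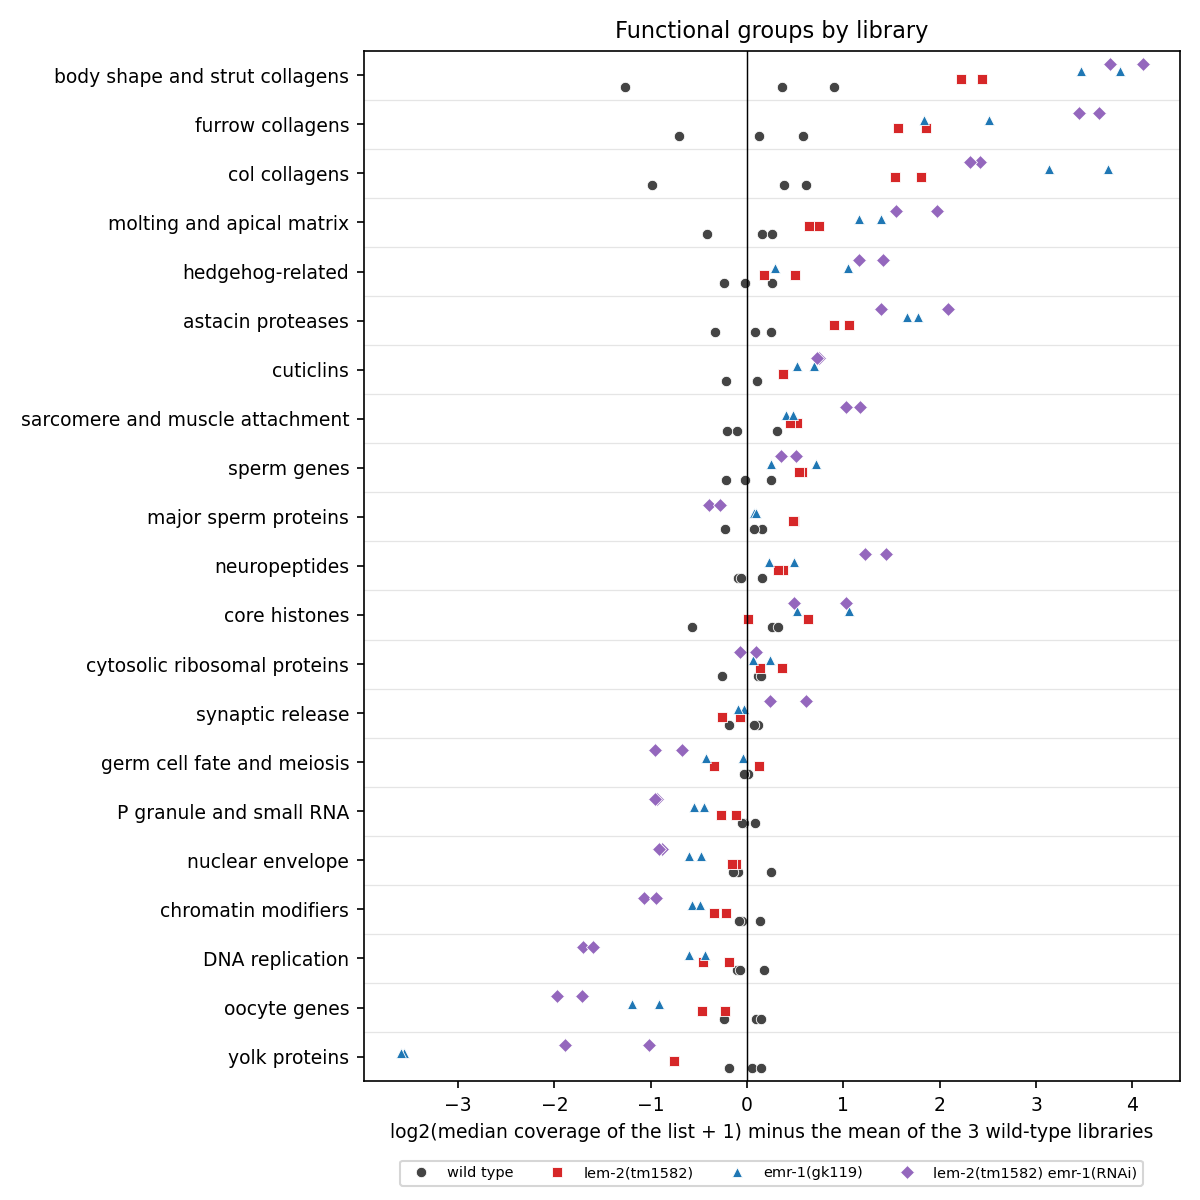
For each functional group, log2 of the median coverage of its members + 1 in each of the 9 libraries, minus the mean of the 3 wild-type libraries (horizontal axis). Cuticle groups lie to the right and oocyte and yolk groups to the left in lem-2(tm1582), and the lowest wild-type symbol in the collagen groups is replicate 3.

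Markers of stage were summed as well. Nearly all of them are members of the lists above, so these sums restate those lists and are no separate evidence. The summed coverage of the larval molt markers mlt-10, mlt-11 and nhr-23 was 45.3, 54.4 and 33.5 in wild type, against 59.9 and 60.2 in lem-2(tm1582). Of these, mlt-10 alone separated the groups, and mlt-11 and nhr-23 overlapped. That of the oocyte markers oma-1, rme-2 and cpg-2 was 1418, 1419 and 1389 against 914 and 1088, and that of the yolk genes vit-2 and vit-6 was 6530, 5756 and 10362 against 3384 and 3609. The sperm markers gsp-3 and spe-9 summed to 135, 95.3 and 124 against 217.8 and 219. Early embryo markers end-1, end-3, med-1 and pes-10 together reached 2.00 to 6.00 in wild type and 2.00 to 3.00 in lem-2(tm1582), with med-1 at 0 in all 5 libraries. The part of the animals' stage in the differences of cuticle, yolk, sperm and oocyte genes was not tested. All these cultures were sampled at 53 h.

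The markers of tissues were present. The muscle markers summed to 441, 512 and 323 in wild type and 728 and 639 in lem-2(tm1582), the epidermal markers to 29.1, 28.2 and 27.6 against 47.94 and 47.95, the intestinal markers elt-2, ges-1 and ifb-2 to 479, 470.2 and 444 against 589 and 538, and the neuronal markers to 285, 243 and 295 against 258 and 255. Only the first 3 of these sums were higher in both lem-2(tm1582) libraries than in every wild-type library. The intestinal sum is mostly ifb-2, while ges-1 lay below every wild-type library. These markers too are members of the lists above. The pharyngeal markers myo-2 and myo-1 summed to 22.9, 83.1 and 27.9 in wild type against 58.3 and 59.7, so the groups overlapped. Of 8 pharyngeal muscle genes 1 (12.5%) was higher and 0 lower at an unadjusted p under 0.05, beside 12.1% of all loci higher, with a median of 0.56. A shift of tissue sums of this kind was not tested for its part in the muscle and cuticle differences.

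Genes that every cell uses differed in direction between lists, beside 12.1% of all loci higher and 3.61% lower. Of 76 cytosolic ribosomal protein genes 3 (3.95%) were higher and 0 lower at an unadjusted p under 0.05, with a median of 0.24 that became 0.09 without wild-type replicate 3, the lowest of the 5 libraries at 71 of them. Of 67 core histone loci, many of them identical copies, 15 (22.4%) were higher and 0 lower. Their median coverage overlapped, at 10.2, 10.7 and 5.33 in wild type against 13.6 and 8.44 in lem-2(tm1582). Wild-type replicate 3 was the lowest of the 5 libraries at 40 of them, and without it 10 (14.9%) were higher, beside 10.3% of all loci. The count also fell without lem-2(tm1582) replicate 1, as did that of all loci. The study's ubiquitous list gave 36 higher (3.1%) and 75 lower (6.45%) of 1163, with a median of -0.10. The 75 became 171 with centred libraries, 113 or 114 without emr-1(gk119) replicate 1 or 2, and 31 without lem-2(tm1582) replicate 1. Heat shock genes gave 4 higher and 1 lower of 23, a count of higher genes that ran from 1 to 8 as single libraries were left out. Here hsp-70 stood at 1.00, 1.00 and 1.00 in wild type and 4.00 and 3.94 in lem-2(tm1582) (1.31 ± 0.24, adjusted p = 0.106).

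For large families tied to the environment, counts at the same level stand beside 12.1% of all loci higher and 3.61% lower. C-type lectins gave 13 higher (8.78%) and 6 lower (4.05%) of 148, F-box genes 19 (9.05%) and 4 (1.9%) of 210, and UDP-glucuronosyltransferases 7 (10.9%) and 1 (1.56%) of 64. Cytochrome P450 genes, which oxidize lipids and foreign compounds, gave 0 higher and 4 lower (6.78%) of 59. With centred libraries the lectins gave 8 and 8 (5.41% each) and the F-box genes 10 (4.76%) and 12 (5.71%), beside 8.77% and 6.88% of all loci. Without lem-2(tm1582) replicate 1 the higher counts of lectins, F-box genes and UDP-glucuronosyltransferases and the lower count of P450 genes fell. Those of all loci fell as well. Without either double library the higher counts were 8 lectins (5.41%) and 4 UDP-glucuronosyltransferases (6.25%), beside 11.3% of all loci. Without wild-type replicate 1, 9 F-box genes (4.29%) were higher, beside 10.8%. Immune effectors gave 3 higher (9.38%) and 2 lower (6.25%) of 32. Without wild-type replicate 2, 7 of them (21.9%) were lower, beside 3.91% of all loci. With another wild-type, an emr-1(gk119) or a double library left out 0 or 1 was. Without either double library 1 (3.12%) was higher, beside 11.3% of all loci. The study lists genes as released from the nuclear periphery in lem-2(tm1582), and 21 of them were tested. At an unadjusted p under 0.05, 1 (4.76%) was higher and 1 (4.76%) lower, beside 12.1% and 3.61% of all loci, with a median of -0.06. The higher one was sms-5, with 4.22, 3.78 and 3.11 against 8.94 and 6.33, and the lower one was ncx-1, with 16.9, 18.6 and 22.6 against 12.2 and 13.9.

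By chromosome the medians of all tested loci lay between 0.01 on III and 0.11 on IV, with 0.04 on I, 0.06 on II, 0.10 on V and 0.06 on X. Chromosome IV held 6 of the 7 loci called higher, of which 5 are the overlapping piRNA annotations. The share of loci higher at an unadjusted p under 0.05 was 14.1% on IV and 9.29% on III. The 14 mitochondrial loci had a median of -0.46, with 0 higher and 1 lower at that level.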

How the data were processed

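The members and gene lists were chosen with earlier results of these data known. The authors mapped reads with TopHat (SAMtools is also named) and deposited a signal, the median coverage per exon, quantile-normalized over the 9 libraries, with the median over exons as the value of a transcript. These values are not counts, and read depth is unknown. Of 49395 rows, 48951 (99.1%) matched WBcel235 (Ensembl), which gave names and coordinates. The study's own SAM test was not repeated. The test was limma (3.58.1, R 4.3.3) on log2(coverage + 1), all 9 libraries in 1 fit, with a mean-variance trend, Benjamini-Hochberg adjustment and two-sided p-values. Named genes were lem-2, emr-1, lmn-1, every called locus, the 8 largest differences in each direction (mean coverage of at least 5, unadjusted p under 0.05, groups apart) and up to 4 members per list with the smallest p. Other genes named are further list members or markers given for contrast. On simulated data for this comparison, 14 of 100 loci changed by 1 (log2) and 76 of 100 changed by 2 were called. For a single value, 3 libraries against 2 allow no exact permutation p under 0.2 when the value of 1 side is doubled, as here.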

Additional observations from a re-analysis of the deposited data

Results flagged for a closer look

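The called loci were looked at again where lem-2(tm1582) also differed from another mutant group by the direct contrast, at an adjusted p under 0.05 with limma. For nlp-33 the contrast with lem-2(tm1582) was 1.70 in emr-1(gk119) and 0.99 in the double libraries. F35H10.6 was 5.47 higher in emr-1(gk119). R102.11 was 1.29 higher in the double libraries. The piRNA loci 21ur-2146, 21ur-13402 and 21ur-12985 were each 0.68 higher there, and 21ur-6210 and 21ur-11351 were each 0.98 higher.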

How the results depend on the processing

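Against 8 transcripts called higher and 2 lower, and 7 and 2 loci, the counts were 20 and 6 transcripts and 18 and 5 loci with only the compared groups fitted, 4 and 3 higher (transcripts and loci) with no trend, 37 and 10 transcripts and 36 and 10 loci with a pseudocount of 0.1, and 4 and 4 higher with a pseudocount of 5. They were 69 and 21 transcripts and 68 and 20 loci with no coverage minimum, and 110 and 11 transcripts and 93 and 9 loci at a minimum of 5. With quantile normalization repeated, 9 and 3 transcripts and 6 and 3 loci were called, and with centred libraries 9 and 3 transcripts and 8 and 3 loci. Leaving out 1 library at a time gave 0 to 8 transcripts higher and 1 to 4 lower, and 0 to 10 loci higher and 1 to 4 lower; without either double library, or emr-1(gk119) replicate 1, 0 loci were higher. The cause of these changes was not tested. Among 200 named genes, 1 direction reversed: lmn-1, at -0.07, ranged from -0.16 to 0.019 as single libraries were left out, the latter without wild-type replicate 2. The other named differences kept their sign.

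The replicate numbers did not pair the libraries, since deviations of same-numbered libraries had r = 0.061 and 0.053 over 8111 loci. With the replicate block, 0 transcripts and 0 loci were called higher and 1 of each lower.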
